A study of Homo sapiens with 24 samples.

Results

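Transcripts of 10 genes of nucleotide excision repair and translesion synthesis were followed in SK-HEP-1 cells: the damage recognition genes XPC, DDB1 and DDB2, the repair factors XPA and ERCC5, and the translesion polymerase genes POLH, POLI, POLK, REV1 and REV3L. The genes were taken by symbol from the 58870 rows of a gene count table, and 10 of 10 were found, each in 1 row. SK-HEP-1 is an established human line from a patient with liver adenocarcinoma. All lines carry CRISPR interference, in which a guide RNA directs a catalytically dead Cas9 fused to a repressor to the promoter it matches. The lines NTC1 and NTC2 express non-targeting guides, and the lines sg2, sg4, sg5 and sg6 express guides against PURPL, a long noncoding RNA that is induced by p53. Each line was given DMSO, the vehicle, or 10 µM Nutlin-3a for 6 h. Each line and treatment has 2 replicate libraries, numbered 1 and 3 in the sample titles and called harvests here. That gives 24 libraries in 12 groups of 2: 4 DMSO and 4 Nutlin-3a libraries of the NTC lines, and 8 and 8 of the PURPL lines. Each guide is represented by 1 established line, so a difference between guides and a difference between lines cannot be told apart.

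Nucleotide excision repair removes bulky, helix-distorting lesions such as the pyrimidine dimers that ultraviolet light leaves in DNA. DDB2 and its larger partner DDB1 bind such a lesion in chromatin as part of a cullin 4 ubiquitin ligase, XPC detects the unpaired strand, XPA verifies the lesion, and ERCC5 (also called XPG) is the nuclease that cuts on its 3′ side. Lesions that reach a replication fork unrepaired can be copied across by low-fidelity translesion polymerases: the Y-family enzymes POLH, POLI, POLK and REV1, and polymerase zeta, whose catalytic subunit is REV3L. POLH (polymerase eta) copies thymine dimers correctly, and its loss causes the variant form of xeroderma pigmentosum, while loss of XPC, XPA, DDB2 or ERCC5 gives other forms of that disease. Nutlin-3a keeps MDM2 from binding p53 and so stabilises p53 without damaging DNA, and DDB2, XPC and POLH are textbook p53 target genes.

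The letters of a p53 site can be read in some of these genes. The p53 consensus is 2 copies of a 10-base element with 0 to 3 bases between them, and its best match on the gene's strand was taken in the window from 250 bases before to 50 after each RefSeq start (GRCh38.p14), with windows found for 10 of 10 genes. The best matches for the genes that rose in Nutlin-3a are given with ERCC5, which was not called, and MDM2, a p53 target that serves as a check, so that genes with and without a change stand side by side. Each run is 30 bases, 5′ to 3′ on the gene's strand, with the 2 elements in capitals.
DDB2: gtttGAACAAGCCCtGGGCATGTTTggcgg
MDM2: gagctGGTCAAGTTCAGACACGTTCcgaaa
XPC: aagtgGAATTTGCCCAGACAAGCAAcatgg
ERCC5: caacGGCCATTCTCtGGACCTGTCTttctt
POLH: cagCAACTCGCGCtggGAAGAAGCCGgcgc

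The DDB2 run lies at chr11:47214975-47215004 on the plus strand. Its 2 elements match the consensus with 0 mismatches, lie 6 to 26 bases from the RefSeq start and fall in an exon annotated as UTR of DDB2. Of 35114 RefSeq promoter windows, 7 held a match with 0 mismatches, a share of 0.0199%. The MDM2 run, at chr12:68808918-68808947 on the plus strand, has 2 mismatches, and 2.67% of windows hold a match at least as close. MDM2 has 4 windows, of which the 2 at its downstream starts hold this run and the 2 at its upstream starts have 5 mismatches. The run lies inside MDM2 but in no exon of it. XPC (chr3:14178565-14178594, minus strand, in UTR of XPC and of the opposite gene LSM3) and ERCC5 (chr13:102846005-102846034, plus strand, in UTR of ERCC5) each have 3 mismatches, a closeness that 18.0% of windows reach. The POLH match, at chr6:43576002-43576031 on the plus strand and in UTR of the neighbour XPO5, has 5 mismatches, a closeness that 94.6% of windows reach. XPA had 4 mismatches, DDB1 and REV1 had 5, and POLI and POLK had 6. REV3L has 2 windows, with 5 and 6 mismatches, and a second, upstream window of DDB2 has 5. The median window's best match had 4 mismatches. An exact copy of a single 10-base element was found in 6.63% of windows and, among the windows of the 10 genes, only in that of DDB2, which holds 2. The box GGGCGG, read on both strands and found in 45.0% of all windows, occurred in the windows of XPC, XPA, DDB1, POLH, POLK, REV1, REV3L and ERCC5 and in that of DDB2 around the p53 match, and not in that of POLI. These matches describe letters in a 300-base window and say nothing of p53 binding there or elsewhere in the genes.

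Library totals ran from 66.4 M to 92.1 M estimated counts, with a median of 74.2 M. MDM2 rose from 381 to 483 CPM (counts scaled to a common library total) in the 4 NTC DMSO libraries to 3772 to 4321 in the 4 NTC Nutlin-3a libraries, and CDKN1A, the p21 cell cycle inhibitor, from 71.7 to 110.4 CPM to 934 to 1070.0 CPM. In the PURPL lines MDM2 was at 418 to 489 CPM in DMSO and 1646 to 5139 in Nutlin-3a, and CDKN1A at 75.3 to 94.4 and 1091 to 2971 CPM. The 1646 and the 2971 are both in the sg2 library of harvest 1. PURPL was at 7.40 to 10.1 CPM in the NTC lines and 0.273 to 0.868 CPM in the PURPL lines in DMSO, and at 29.7 to 38.5 against 0.743 to 2.90 CPM in Nutlin-3a. The libraries thus match their labels for treatment and guide class. These levels do not tell the guides of a class apart. The labels call the cells endothelial, but 10 of 10 endothelial markers stayed under 1 CPM in every library, with ERG at 0, PECAM1 at no more than 0.0277 and CDH5 at no more than 0.0591 CPM. Of 7 hepatocyte markers 5 stayed under 1 CPM, ALB among them at no more than 0.0142, and AFP and SERPINA1 reached no more than 1.62 and 4.08 CPM. Of 6 mesenchymal markers, VIM was at 3566 to 4871, FN1 at 2089 to 4473 and THY1 at 26.7 to 110.4 CPM, while COL1A1, PDGFRB and COL1A2 reached no more than 6.31, 1.91 and 0.260 CPM. Of 5 epithelial markers, the keratins KRT8 and KRT18 were at 442 to 5194 and 914 to 3704 CPM, KRT19 was at 2.95 to 102 CPM, and EPCAM and CDH1 stayed under 1 CPM. The 5 summed to 1359.7 to 2606 CPM in 23 libraries and to 9002 CPM in the sg2 Nutlin-3a library of harvest 1. The 6 genes listed as signs of RNA quality, nuclear-retained and mitochondrial transcripts, summed to 3888 to 5185 CPM in DMSO and 5421 to 7372 CPM in Nutlin-3a (5903 in the sg2 library of harvest 1). They move with the treatment, and their part in the results was not tested.

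Of the 24 libraries, 2 were taken as standing apart in ways that touch these genes, and 1 more is described with them. In the sg2 Nutlin-3a library of harvest 1, log2 levels rose by 1.46 per 10 percentage points of transcript GC content relative to the median over the 24 libraries, and its median correlation with the other Nutlin-3a libraries was 0.907. In the NTC1 DMSO library of harvest 3 the slope was 0.29 and the correlation with the other DMSO libraries 0.987. The sg5 Nutlin-3a library of harvest 3 was much like the latter by these measures, with a slope of 0.33 and a correlation of 0.988, and in the remaining 21 libraries slopes ran from -0.21 to 0.13 and correlations from 0.993 to 0.995. The 3 GC-rich members, DDB1, XPC and DDB2 with 51.9% to 53.5% GC, lay above the 11 other Nutlin-3a libraries in the sg2 library: DDB1 at 577 CPM against 363 to 456, DDB2 at 135 against 55.5 to 69.8, and XPC at 94.0 against 47.6 to 61.4. The AT-rich members lay below: POLK, with 34.7% GC, was at 25.0 CPM against 51.3 to 71.1, and REV3L, with 40.0% GC, at 37.8 against 68.9 to 93.7. Over the 10 genes, the shift of this library had a Pearson correlation of 0.95 with GC content. In the NTC1 DMSO library of harvest 3, REV3L was at 29.5 CPM against 59.1 to 68.1 in the other DMSO libraries and POLK at 34.4 against 56.3 to 70.5, DDB2 was above the others at 42.0 against 27.0 to 35.3, and that correlation was 0.69. The sg5 library of harvest 3 lay closer to the rest. Against the 10 Nutlin-3a libraries other than it and the sg2 library, it was above for 2 members (DDB1 at 456 against 363 to 435 CPM, and DDB2 at 69.8 against 55.5 to 65.1 CPM) and below for 6, such as POLI at 17.5 against 20.7 to 24.7 and REV1 at 23.5 against 25.2 to 30.5 CPM. With it alone left out, no member's call changed in the Nutlin-3a comparisons. Results are therefore given with all libraries and, where it matters, without the sg2 library, without that and the NTC1 library, or without that and the sg5 library.

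**Figure D1:**
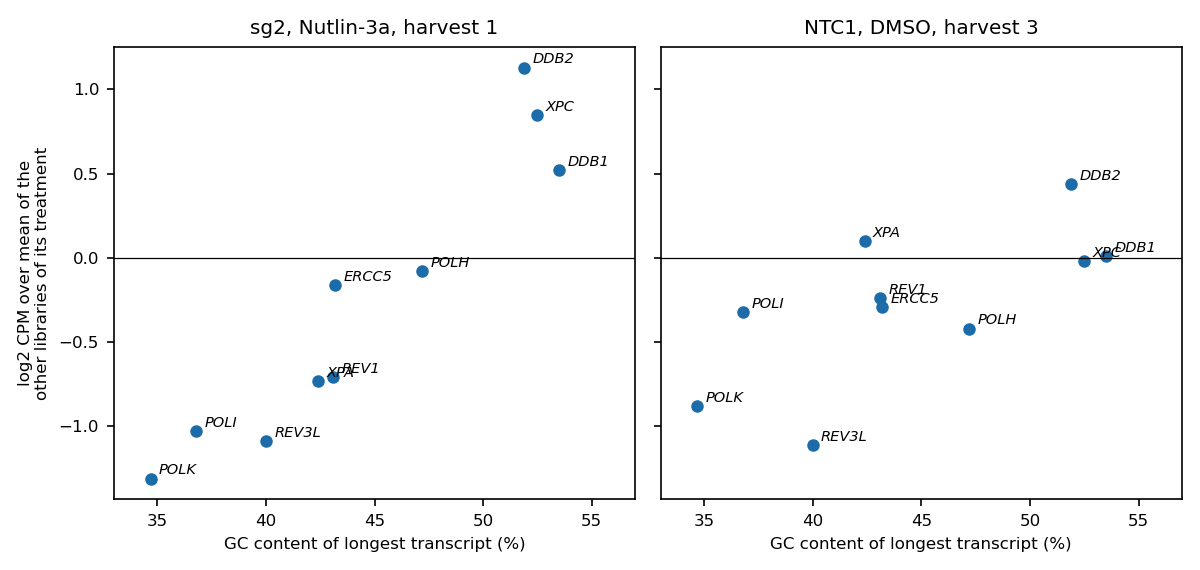
Shift of each of the 10 genes (log2 CPM minus the mean of the other libraries of the treatment, vertical axis) against the GC content of its longest transcript (percent, horizontal axis), in the 2 libraries that stand apart. In the sg2 library the points climb from -1.31 for POLK to 1.13 for DDB2, and in the NTC1 library REV3L and POLK lie lowest.

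Nutlin-3a raised 3 of the 10 transcripts in the NTC lines: POLH by 2.79-fold, XPC by 2.24-fold and DDB2 by 1.85-fold. The other 7 did not pass the test, and 0 of 10 passed as lower. The test was edgeR's quasi-likelihood F test with Benjamini-Hochberg adjustment over all 16371 genes tested, called at an adjusted p under 0.05, and 10 of 10 members were among the genes tested. Over all genes, 4.18% were called higher and 4.03% lower, against 3 and 0 of the 10. The median log2 fold change of the 10 genes was 0.17, against -0.02 over all genes. For the count of 0 lower, the count at an unadjusted p under 0.05 was also 0, in edgeR and in DESeq2. Without the sg2 library 8.88% of genes were called higher and 15.9% lower, and REV3L joined the higher and REV1 the lower members. The NTC libraries are the same in that fit, but the shared estimate of spread, the scaling and the set of 16697 genes tested are not, and the median over all genes was -0.06. In these bulk samples a change in the amount of RNA per cell and a change in the mix of cells cannot be told apart.

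In the PURPL lines the same 3 transcripts rose, POLH by 2.34-fold, XPC by 2.44-fold and DDB2 by 2.23-fold, and REV1 fell. There 17.7% of all genes were called higher and 16.5% lower, a background against which 1 of 10 lower is below the share of all genes. The median log2 fold change of the 10 genes was 0.10, against 0.05 over all genes. Without the sg2 library the counts were 4 higher and 1 lower, REV3L being the added gene, with 15.9% and 22.7% of all genes called. With the other sg2 Nutlin-3a library, that of harvest 3, left out instead, XPA, POLI and POLK were called lower beside REV1 and DDB1 higher, but there 33.1% of all genes were called higher and 32.1% lower.

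**Figure D2:**
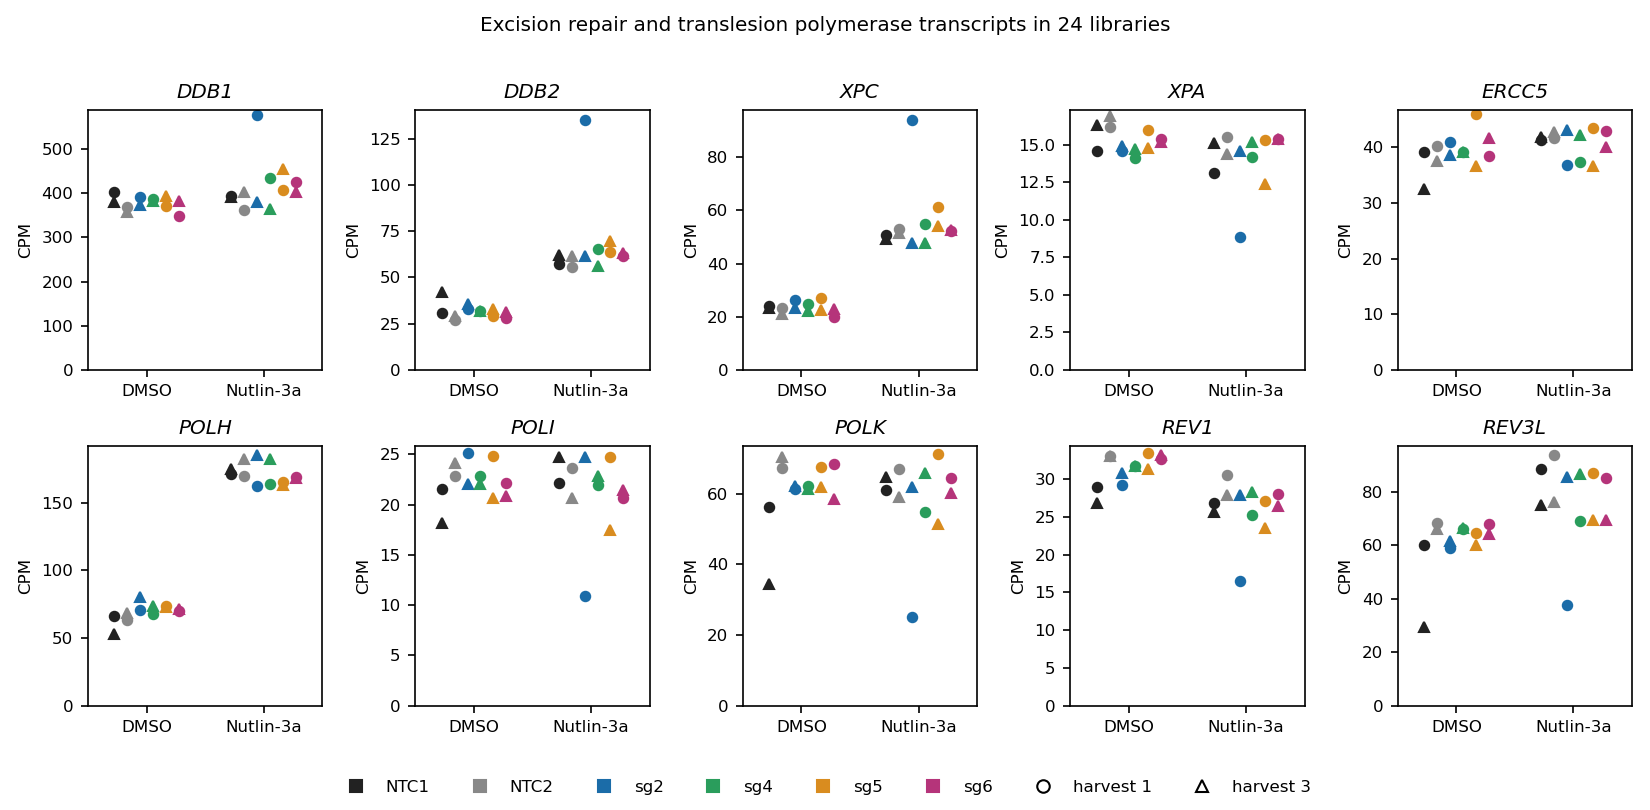
CPM of the 10 genes in the 24 libraries (vertical axis, starting at 0), DMSO on the left and Nutlin-3a on the right of each panel, with colours for the 6 lines and circles and triangles for harvests 1 and 3. DDB2, XPC and POLH separate by treatment in every line, and the sg2 circle in Nutlin-3a and the NTC1 triangle in DMSO lie apart from the rest for several genes.

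DDB2, the lesion-binding subunit (chr11:47214465-47239240, plus strand, ENSG00000134574.11), was at 30.8 and 42.0 CPM in NTC1 and 27.0 and 29.3 CPM in NTC2 in DMSO, and at 57.3 and 62.0 CPM in NTC1 and 55.5 and 61.6 CPM in NTC2 in Nutlin-3a. In the PURPL lines the lowest, median and highest of 8 libraries were 28.1, 31.8 and 35.3 CPM in DMSO and 56.2, 63.6 and 135 CPM in Nutlin-3a. The 12 Nutlin-3a libraries were all above the 12 DMSO libraries, as for 3.14% of all genes, and the library at 135 CPM is the sg2 library that stands apart. The log2 fold change was 0.88 ± 0.17 (SE) in the NTC lines (edgeR adjusted p = 0.00444) and 1.16 ± 0.12 in the PURPL lines (adjusted p = 6.01e-06). Leaving out that library gave 0.85 ± 0.09 and 0.98 ± 0.07. By line, 1.64% of genes were called higher in NTC1, 1.61% in NTC2, 20.2% in sg2, 1.72% in sg4, 1.73% in sg5 and 1.73% in sg6. When that library was left out, the shares were 6.65%, 4.49%, 3.15%, 5.05%, 6.66% and 5.44% in the same order. Line by line DDB2 passed the test in 4 of 6 lines with all libraries, with 0.71 in NTC1 (edgeR adjusted p = 0.182) and 0.93 in sg4 (edgeR adjusted p = 0.0520) short of the threshold, and in 6 of 6 without the sg2 library, where the range was 0.68 to 1.11.

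XPC, the sensor of the unpaired strand (chr3:14145147-14178783, minus strand, ENSG00000154767.14), was at 24.1 and 23.1 CPM in NTC1 and 23.1 and 21.1 CPM in NTC2 in DMSO, and at 50.9 and 49.4 CPM and 52.9 and 51.6 CPM in Nutlin-3a. The 8 PURPL libraries ran from 20.0 through a median of 22.9 to 27.1 CPM in DMSO and from 47.6 through 53.3 to 94.0 CPM in Nutlin-3a. Again no Nutlin-3a library reached down to a DMSO library. The log2 fold change was 1.16 ± 0.15 in the NTC lines (edgeR adjusted p = 0.000166) and 1.29 ± 0.11 in the PURPL lines (adjusted p = 5.70e-07), or 1.13 ± 0.08 and 1.13 ± 0.06 without the sg2 library. XPC passed in 6 of 6 lines, at 1.09 to 1.52, or 0.91 to 1.28 without that library. XPC shares 318 exonic bases, 6.63% of its own, with LSM3 on the opposite strand, and whether reads were counted by strand is not given in the sources used here. LSM3 had log2 fold changes of 0.03 ± 0.11 and -0.02 ± 0.08 in the NTC and PURPL lines.

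POLH, the polymerase that bypasses thymine dimers (chr6:43576150-43615660, plus strand, ENSG00000170734.11), was at 66.1 and 52.7 CPM in NTC1 and 63.6 and 68.4 CPM in NTC2 in DMSO, and at 171 and 175 CPM and 169.8 and 182 CPM in Nutlin-3a. The 8 PURPL libraries ran from 67.5 through a median of 72.3 to 80.1 CPM in DMSO and from 162 through 166 to 185 CPM in Nutlin-3a. The lowest Nutlin-3a library, at 162 CPM, was above the highest DMSO library, at 80.1 CPM. The log2 fold change was 1.48 ± 0.08 in the NTC lines (edgeR adjusted p = 2.78e-08) and 1.23 ± 0.06 in the PURPL lines (adjusted p = 1.45e-09). It passed in 6 of 6 lines, at 1.16 in sg5 to 1.54 in NTC1. POLH moved least with the sg2 library, which was at 162 CPM against 163 to 185 in the other Nutlin-3a libraries.

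DDB1, the large partner of DDB2 (chr11:61299451-61342596, minus strand, ENSG00000167986.13), was at 403 and 380.2 CPM in NTC1 and 368 and 358 CPM in NTC2 in DMSO, and at 394 and 392 CPM and 363 and 404 CPM in Nutlin-3a, so the groups overlapped. In the PURPL lines the lowest, median and highest were 348, 383 and 393 CPM in DMSO and 365, 416 and 577 CPM in Nutlin-3a, the last in the sg2 library. Its log2 fold change was 0.04 in the NTC lines (95% interval -0.19 to 0.27) and 0.19 in the PURPL lines (0.02 to 0.35, edgeR adjusted p = 0.0677), and 0.01 (-0.13 to 0.14) and 0.09 (-0.01 to 0.19) without the sg2 library. DESeq2 called DDB1 higher in the PURPL lines with all libraries. The ratio of DDB1 to DDB2 per kilobase of exon was 4.21 ± 0.413 (SD, n = 12) in DMSO and 2.29 ± 0.0784 (SD, n = 11, without the sg2 library) in Nutlin-3a, a description of transcripts and not of the protein complex. With the longest transcript as the length, the ratios were 8.25 ± 0.810 and 4.49 ± 0.154.

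The 2 other excision repair genes did not pass the test in either line class. XPA, the verifier (chr9:97674909-97697357, minus strand, ENSG00000136936.10), was at 14.6 to 16.9 CPM in the 4 NTC DMSO libraries and 13.1 to 15.5 CPM in the 4 NTC Nutlin-3a libraries, with a log2 fold change of -0.14 (95% interval -0.41 to 0.13). In the PURPL lines XPA was at 14.1 to 16.0 CPM in DMSO and, in Nutlin-3a, at 12.4 to 15.4 CPM in 7 libraries and 8.82 CPM in the sg2 library, with a log2 fold change of -0.11 (-0.31 to 0.08), or -0.05 (-0.16 to 0.07) without that library. The XPA groups overlapped in both line classes. ERCC5, the 3′ nuclease (chr13:102807146-102876001, plus strand, ENSG00000134899.20), was at 39.1, 32.5, 40.2 and 37.6 CPM in the NTC DMSO libraries and at 41.4, 41.8, 41.7 and 42.8 CPM in the NTC Nutlin-3a libraries. The 2 sets do not touch, yet the log2 fold change was 0.17 (95% interval -0.03 to 0.37) and did not pass the test (edgeR adjusted p = 0.383), and in the PURPL lines the groups overlapped, at 36.6 to 46.0 CPM in DMSO and 36.7 to 43.5 CPM in Nutlin-3a, with a log2 fold change of 0.01 (-0.13 to 0.15). Over all genes, 11.1% have their 4 NTC Nutlin-3a libraries above the 4 NTC DMSO libraries, as 5 of the 10 members do. ERCC5 was the only member with estimated counts that were not whole, in 24 of 24 libraries, and it shares 5213 exonic bases (63.2%) with the read-through gene BIVM-ERCC5, which was at 0 to 0.495 CPM, and 1572 with BIVM.

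Among the other polymerases, REV3L, the catalytic subunit of polymerase zeta (chr6:111299028-111483715, minus strand, ENSG00000009413.15), was above the 12 DMSO libraries in 11 of the 12 Nutlin-3a libraries, as were 4.49% of all genes in those 11. It was at 60.1 and 29.5 CPM in NTC1 and 68.1 and 65.9 CPM in NTC2 in DMSO, and at 88.3 and 74.9 CPM and 93.7 and 76.0 CPM in Nutlin-3a. The 8 PURPL libraries ran from 59.1 through a median of 64.3 to 68.0 CPM in DMSO, and in Nutlin-3a from 68.9 through 85.0 to 87.1 CPM in the 7 libraries other than the sg2 library at 37.8 CPM. With all libraries REV3L did not pass: its log2 fold change was 0.60 ± 0.23 in the NTC lines (edgeR adjusted p = 0.135) and 0.20 ± 0.16 in the PURPL lines (adjusted p = 0.323). Without the sg2 library it passed in both, at 0.57 ± 0.15 (adjusted p = 0.0114) and 0.31 ± 0.11 (adjusted p = 0.0425). With the NTC1 DMSO library of harvest 3 left out as well, the 2 values were 0.36 ± 0.10 (edgeR adjusted p = 0.0190) and 0.31 ± 0.07 (edgeR adjusted p = 0.00168). With the sg2 and sg5 libraries left out, they were 0.63 ± 0.16 (edgeR adjusted p = 0.0111) and 0.39 ± 0.13 (edgeR adjusted p = 0.0267). Among the fits that leave out 1 library, the PURPL call came only without the sg2 library, which was singled out after its values were seen. In the NTC lines REV3L was also called in fits that keep that library. It was at 0.81 ± 0.21 without NTC1 DMSO harvest 1, and at 0.57 ± 0.15 without sg2 Nutlin-3a harvest 3. The NTC value moves by over 1.5 times with the NTC1 DMSO library of harvest 3.

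REV1, the deoxycytidyl transferase that also acts as a scaffold for the other polymerases (chr2:99400475-99490035, minus strand, ENSG00000135945.10), was the only member called lower with all libraries, in the PURPL lines. It was at 28.9 and 26.9 CPM in NTC1 and 33.1 and 33.1 CPM in NTC2 in DMSO, and at 26.8 and 25.7 CPM and 30.5 and 27.9 CPM in Nutlin-3a, so the NTC groups overlapped. In the PURPL lines the lowest, median and highest were 29.2, 31.7 and 33.5 CPM in DMSO and 16.5, 26.8 and 28.3 CPM in Nutlin-3a, and the groups did not overlap, as was so for 10.8% of all genes in that direction. The log2 fold change was -0.33 ± 0.09 in the PURPL lines (edgeR adjusted p = 0.00970) and -0.13 ± 0.12 in the NTC lines (adjusted p = 0.653), and -0.26 ± 0.04 (adjusted p = 0.000149) and -0.17 ± 0.06 (adjusted p = 0.0410) without the sg2 library. With the sg5 library of harvest 3 left out as well, the values were -0.19 ± 0.04 (edgeR adjusted p = 0.00271) in the PURPL lines, a change of over 1.5 times from that with all libraries, and -0.11 ± 0.06 in the NTC lines, where the call was lost (edgeR adjusted p = 0.181). It was below 0 in 6 of 6 lines. REV1 shares 852 exonic bases, 11.0% of its own, with EIF5B on the opposite strand, a translation initiation factor at 174 to 349 CPM whose log2 fold changes were -0.13 ± 0.12 in the NTC lines and -0.37 ± 0.09 in the PURPL lines (edgeR adjusted p = 0.00497). EIF5B is the more abundant of the pair and moved alike, and its part in the REV1 value was not tested.

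POLI and POLK, the 2 remaining Y-family enzymes, showed no change that passed. POLI (chr18:54269404-54321266, plus strand, ENSG00000101751.10) was at 18.2 to 24.1 CPM in the NTC lines in DMSO and 20.7 to 24.7 CPM in Nutlin-3a, with a log2 fold change of 0.08 (95% interval -0.32 to 0.47). POLK (chr5:75511756-75601144, plus strand, ENSG00000122008.15) was at 34.4 to 70.5 CPM and 59.0 to 67.1 CPM, with a log2 fold change of 0.17 (-0.29 to 0.63). In the PURPL lines POLI was at 20.7 to 25.1 CPM in DMSO and POLK at 58.6 to 68.4 CPM, and in Nutlin-3a, over the 7 libraries other than the sg2 library, POLI was at 17.5 to 24.7 and POLK at 51.3 to 71.1 CPM. The groups of both genes overlapped. Without the sg2 library the PURPL intervals were -0.19 to 0.12 for POLI and -0.24 to 0.15 for POLK. Among the Y-family transcripts, POLH made up 59.9% ± 2.07 (SD, n = 12) of their summed level per kilobase of exon in DMSO and 79.4% ± 1.27 (SD, n = 11) in Nutlin-3a, or 48.8% ± 2.14 and 71.1% ± 1.58 with the longest transcript as the length.

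Lines differed by less than the treatment did for DDB2, XPC and POLH, and for most other members they did not. With the 2 libraries that stand apart left out, which leaves sg2 in Nutlin-3a and NTC1 in DMSO with 1 library each, the highest line was 1.06 times (ERCC5) to 1.22 times (POLK) the lowest in DMSO, and 1.05 times (POLK) to 1.21 times (XPC) in Nutlin-3a. The highest line of DDB2 in DMSO was sg2, at a mean of 34.1 CPM, and the lowest in Nutlin-3a was NTC2, at 58.5 CPM. For POLH those were sg2, at 75.3 CPM, and sg5, at 164 CPM. For XPC sg2 was both, with a mean of 24.7 CPM in DMSO and its single remaining library at 47.6 CPM in Nutlin-3a. POLK, by contrast, differed 1.22 times between lines in DMSO, and DDB1 1.11 times. With the same 2 libraries left out, the log2 fold changes of POLK were -0.02 in the NTC and -0.05 in the PURPL lines. Those of DDB1 were -0.01 and 0.09. With all libraries the treatment folds were 1.13 in the NTC and 0.894 in the PURPL lines for POLK, and 1.03 and 1.14 for DDB1. No pair of lines was tested.

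With all libraries, the size of the response by line ran in a narrow band for POLH. It was 1.54 in NTC1, 1.41 in NTC2, 1.29 in sg4, 1.25 in sg6, 1.21 in sg2 and 1.16 in sg5, each ± 0.12. Both NTC lines were above the 4 PURPL lines, an order whose share over all genes was not counted. The difference of the responses of the 2 line classes did not pass for POLH (edgeR adjusted p = 0.533). The NTC1 DMSO library of harvest 3 was low for POLH, at 52.7 CPM against 63.6 to 80.1 in the other DMSO libraries. With it left out, the NTC value was 1.37 ± 0.08, against 1.48 with all libraries, and the PURPL value was 1.21 ± 0.05. For XPC without the sg2 library the 6 values were 1.28 in sg6, 1.23 in sg5, 1.20 in NTC2, 1.11 in sg4, 1.06 in NTC1 and 0.91 in sg2, with SEs of 0.11 to 0.13, and neighbours in that order did not differ by more than 2 SE. DDB2 had 1.11 in sg5, 1.06 in sg6, 1.02 in NTC2, 0.92 in sg4, 0.82 in sg2 and 0.68 in NTC1 in the same fit. NTC1, the lowest for DDB2, is also the line whose DMSO library of harvest 3 had the high DDB2 value of 42.0 CPM.

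**Figure D3:**
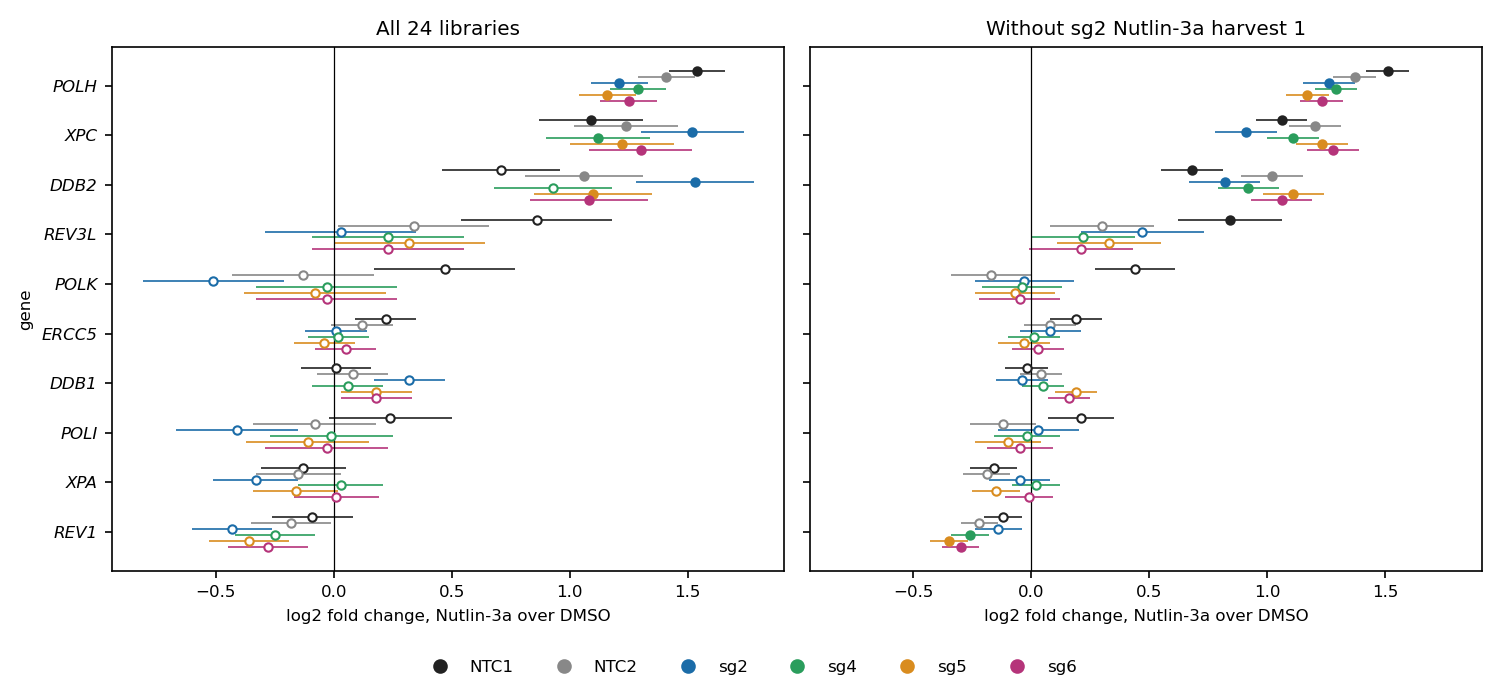
Log2 fold change of Nutlin-3a over DMSO (horizontal axis) of the 10 genes in each of the 6 lines, with all 24 libraries on the left and without the sg2 Nutlin-3a library of harvest 1 on the right. Bars are ± 1 SE, filled points passed an adjusted p under 0.05 and open points did not. POLH and XPC are filled in 6 of 6 lines in both panels, and DDB2 in 4 of 6 on the left and 6 of 6 on the right.

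The 3 transcripts that rose had much the same pattern across libraries. Over the 23 libraries other than the sg2 library, log2 CPM of DDB2 and XPC had a Pearson correlation of 0.959, XPC and POLH 0.965, and DDB2 and POLH 0.933, while REV1 and DDB2 had -0.860. These libraries share the 2 treatments, by which the levels of DDB2, XPC and POLH separate without overlap. Of all genes tested, the 3 most like DDB2 were TAP1 (0.991), a peptide transporter of antigen presentation, ACTA2 (0.990), smooth muscle actin, and FHL2 (0.987). Those most like XPC were RETSAT (0.989), APOBEC3C (0.989) and NOP14-AS1 (0.988), and those most like POLH were ACER2 (0.996), an alkaline ceramidase, PRKX (0.995) and TP53INP1 (0.994), a p53-induced nuclear protein. No member of the 10 was among them.

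Levels between the 10 genes can be compared only per length. Per kilobase of exon, the DMSO order was DDB1 at 27.1 CPM, POLH at 19.6, XPA at 8.36, POLK at 6.70, DDB2 at 6.51, REV3L at 4.92, XPC at 4.87, ERCC5 at 4.75, REV1 at 4.03 and POLI at 2.36, each a mean of 12 libraries. DDB1 and POLH were each above the next gene in every library, XPA, POLK and DDB2 overlapped one another in turn, and so did REV3L, XPC, ERCC5 and REV1. In Nutlin-3a, over 11 libraries, POLH at 48.6 stood above DDB1 at 28.8, and DDB2 at 12.6 and XPC at 10.9 came next. With the longest transcript as the length, DDB1 remained above POLH, at 89.3 against 48.6, so the order of those 2 depends on the length taken.

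Silencing of PURPL was compared between the 4 PURPL lines and the 2 NTC lines, with the harvests of a line summed so that the line is the replicate. In DMSO, 0 of 10 members passed the test, with edgeR adjusted p-values of 0.825 to 0.988. Of 16648 genes tested, 0% were called higher and 0.00601% lower, which is 1 gene, PURPL itself. At an unadjusted p under 0.05 there were 528 genes, POLH among them as the only member, and DESeq2 called 8 genes higher and 3 lower, 0 of them members. POLH was at 59.4 and 66.0 CPM as the means of NTC1 and NTC2 and at 70.5 to 75.3 CPM in the 4 PURPL lines. The NTC1 mean includes the DMSO library of harvest 3, at 52.7 CPM. The log2 difference of POLH was 0.21 (95% interval 0.05 to 0.37, edgeR adjusted p = 0.825). For DDB2 the difference was -0.04 (-0.30 to 0.21), for XPC 0.05 (-0.14 to 0.24) and for REV3L 0.20 (-0.14 to 0.55). For DDB2, XPC and POLH the upper bound is below the log2 change that Nutlin-3a gave for the same gene. For REV3L the upper bound of 0.55 is below its change of 0.60 in the NTC lines and above its 0.20 in the PURPL lines.

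The DMSO comparison depends on the NTC lines. With NTC2 left out, so that NTC1 stood alone, 17.9% of all genes were called higher in the PURPL lines and 18.9% lower. Among the members ERCC5, POLH, POLI, POLK, REV1 and REV3L were called higher and DDB2 lower, by 0.17, 0.30, 0.19, 0.50, 0.19, 0.55 and -0.23, and a single line gives no spread of its own. NTC1 holds the DMSO library of harvest 3 that stands apart. With NTC1 left out, 0 members were called and REV3L was at -0.07 and POLK at -0.13. With the 2 libraries that stand apart left out, POLH had a difference of 0.13 ± 0.05, REV3L of -0.00 ± 0.06 and POLK of 0.00 ± 0.07.

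In Nutlin-3a, 0 of 10 members differed between PURPL and NTC lines (edgeR adjusted p = 0.676 to 0.818), and 0% of 16900 genes were called in either direction. PURPL itself had a log2 difference of -4.16 ± 0.34, yet its edgeR adjusted p was 0.432, so the count of 0 with all libraries also misses the targeted gene. At an unadjusted p under 0.05 there were 286 genes, 0 of them members, and DESeq2 called 2 genes higher and 2 lower. Without the sg2 library PURPL was called, at -4.06 ± 0.17 (edgeR adjusted p = 4.88e-05), as the only gene called, 0.00596% of those tested, and 0 members were. The intervals then narrowed: POLH differed by -0.02 (95% interval -0.13 to 0.10), XPC by 0.03 (-0.13 to 0.20), DDB2 by 0.09 (-0.03 to 0.20), REV3L by -0.06 (-0.17 to 0.05) and REV1 by -0.05 (-0.18 to 0.09).

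The difference of the 2 Nutlin-3a responses, PURPL lines minus NTC lines, was tested with a term for each line. It passed for 0 of 10 members (edgeR adjusted p = 0.533 to 0.995) and for 0% of 17264 genes, with 621 genes at an unadjusted p under 0.05, POLH the only member among them, and 2 genes called higher and 0 lower by DESeq2. In DESeq2, 2 members had an unadjusted p under 0.05, POLH and REV3L, both lower, and neither passed after adjustment. POLH rose by less in the PURPL lines, with a difference of -0.29 (95% interval -0.53 to -0.05) with all libraries, -0.24 (-0.43 to -0.06) without the sg2 library and -0.15 ± 0.07 without both libraries that stand apart, none of which passed after adjustment. REV3L had -0.46 (-0.92 to 0.01) and -0.06 ± 0.09 in the first and last of these settings. The fall of REV1, called in the PURPL lines and not in the NTC lines with all libraries, did not differ between them beyond the spread of lines, at -0.23 (-0.52 to 0.06).

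**Figure D4:**
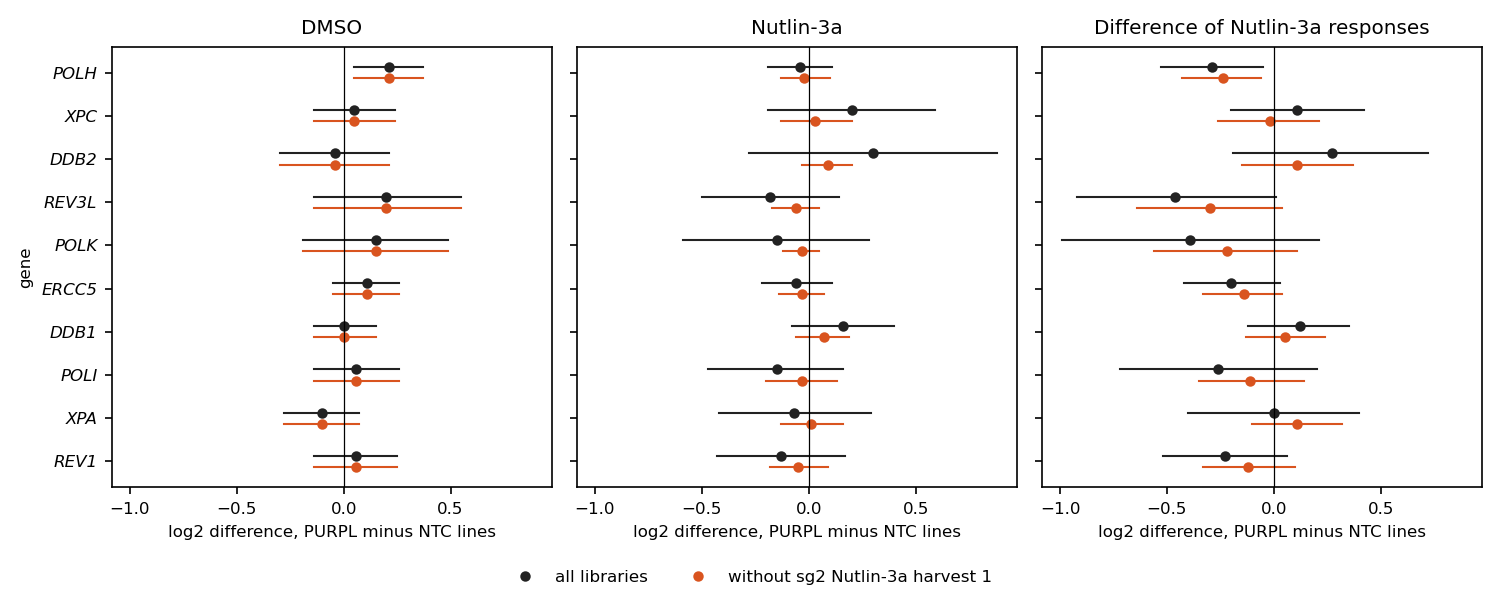
Log2 difference between PURPL and NTC lines (horizontal axis) for the 10 genes in DMSO, in Nutlin-3a and for the difference of the 2 responses, with all libraries in black and without the sg2 Nutlin-3a library of harvest 1 in orange. Lines are 95% intervals, and 0 of 10 genes passed the adjusted test in any panel.

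Other genes of these pathways were taken from 8 lists, 94 genes of which 93 were tested. In the NTC lines 2 of 93 were called higher (2.15%) and 18 lower (19.4%) with Nutlin-3a, beside 4.18% and 4.03% of all genes. Of the same 93 genes 12 were called higher in the PURPL lines (12.9%) and 29 lower (31.2%), beside 17.7% and 16.5% of all genes. When the sg2 library was left out, the shares were 4.30% higher and 34.4% lower in the NTC lines, beside 8.88% and 15.9%, and 9.68% and 43.0% in the PURPL lines, beside 15.9% and 22.7%. The share called lower was thus above that of all genes in each of these 4 fits, and the share called higher below it. For gap filling and ligation the median log2 fold change was -0.49 in the NTC lines and -0.18 in the PURPL lines, or -0.52 and -0.42 without the sg2 library. Base excision repair had -0.28 and 0.05, or -0.31 and -0.03, and the other recognition factors 0.00 and 0.06, or -0.03 and -0.01. Over all genes the medians were -0.02 and 0.05, or -0.06 and -0.00.

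In the NTC lines with all libraries, few partners of the members in damage recognition were called. Of 9 other recognition factors, among them the XPC partners RAD23B and CETN2, 0 passed in the NTC lines, and without the sg2 library CETN2 alone was called, at 0.16 ± 0.05 (edgeR adjusted p = 0.0217). XAB2 was the 1 of the 9 called higher in the PURPL lines, at 1.03 ± 0.36 (edgeR adjusted p = 0.0399), and was at 0.26 ± 0.15 (edgeR adjusted p = 0.199) without the sg2 library. Of the 10 partners of DDB1 in cullin 4 ligases, DTL (CDT2), the substrate receptor that degrades CDT1 in S phase, fell in the NTC lines, with a log2 fold change of -1.63 ± 0.17 (edgeR adjusted p = 1.29e-05), from 177 ± 25.1 to 56.7 ± 1.66 CPM (SD, n = 4), and the other 9 did not pass. Without the sg2 library CUL4A (-0.17 ± 0.04) and DCAF1 (-0.22 ± 0.07) were called lower in the NTC lines as well. With all libraries, 3 of the 10 fell in the PURPL lines, DTL (-1.95 ± 0.12), DCAF1 (-0.39 ± 0.06) and CUL4A (-0.25 ± 0.06). There 2 rose, DET1 (0.34 ± 0.09) and NEDD8 (0.24 ± 0.07). Of 10 subunits of TFIIH, the helicase complex that opens the DNA around a lesion, 0 passed in the NTC lines with all libraries. In the PURPL lines 3 were called lower and 0 higher. Without the sg2 library GTF2H2 (-0.21 ± 0.06) and ERCC3 (-0.20 ± 0.07) were called lower and GTF2H5 (0.19 ± 0.06) higher in the NTC lines.

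Some genes of the later steps fell. Of 6 incision and single-strand binding genes, RPA2 (-0.49 ± 0.09) and RPA1 (-0.36 ± 0.06), subunits of the protein that coats the undamaged strand, fell in the NTC lines. Both fell in the PURPL lines as well, where ERCC1, a subunit of the 5′ nuclease, was called higher, at 0.67 ± 0.23, and not without the sg2 library, at 0.26 ± 0.11. Of 17 gap filling and ligation genes 8 fell and 1 rose in the NTC lines, and the other 8 did not pass. POLD3, a subunit of polymerase delta that also serves polymerase zeta, had -0.87 ± 0.09, and the clamp loader subunits RFC5, RFC4 and RFC2 had -0.50 ± 0.09, -0.51 ± 0.10 and -0.65 ± 0.14. PCNA, the sliding clamp, was the gene that rose, by 0.42 ± 0.10 (edgeR adjusted p = 0.0135). Of the same 17 genes 8 fell and 3 rose in the PURPL lines, the latter PCNA, POLD4 and LIG1, at 0.35 ± 0.07, 1.04 ± 0.33 and 0.65 ± 0.24. Without the sg2 library POLD4 and LIG1 were not called, at 0.56 ± 0.23 and 0.23 ± 0.11, and PCNA was, at 0.40 ± 0.04. PCNA, APTX among the base excision repair genes, and the genes given for the PURPL lines only were picked once their values were known.

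Around the translesion polymerases, 2 of 17 damage tolerance genes fell and 0 rose in the NTC lines, and 7 fell and 0 rose in the PURPL lines. RFWD3, a ubiquitin ligase acting at stalled forks, had -0.89 ± 0.10, and USP1, which removes ubiquitin from PCNA, had -1.03 ± 0.22 (edgeR adjusted p = 0.00706), from 374 ± 56.7 to 182 ± 8.26 CPM (SD, n = 4). In the NTC lines RAD18, the ligase that marks PCNA for POLH, was not called with all libraries, and was without the sg2 library, at -0.51 ± 0.07. RAD18 was among the 7 that fell in the PURPL lines with all libraries, at -0.74 ± 0.11. Of 7 other repair polymerases 6 were tested and 0 passed in the NTC lines, while 1 rose and 1 fell in the PURPL lines. In base excision repair, 5 of 18 genes fell and 1 rose in the NTC lines, and 5 fell and 4 rose in the PURPL lines. Without the sg2 library 8 fell and 3 rose in the PURPL lines. MPG, among the 4 at 1.56 ± 0.53, was then not called, at 0.23 ± 0.23. In the NTC lines the uracil glycosylase UNG had -1.20 ± 0.09, the flap nuclease FEN1 -1.01 ± 0.14, NEIL3 -0.86 ± 0.16 and PARP2 -0.45 ± 0.07, while APTX, an end-processing enzyme, had 0.27 ± 0.07.

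**Figure D5:**
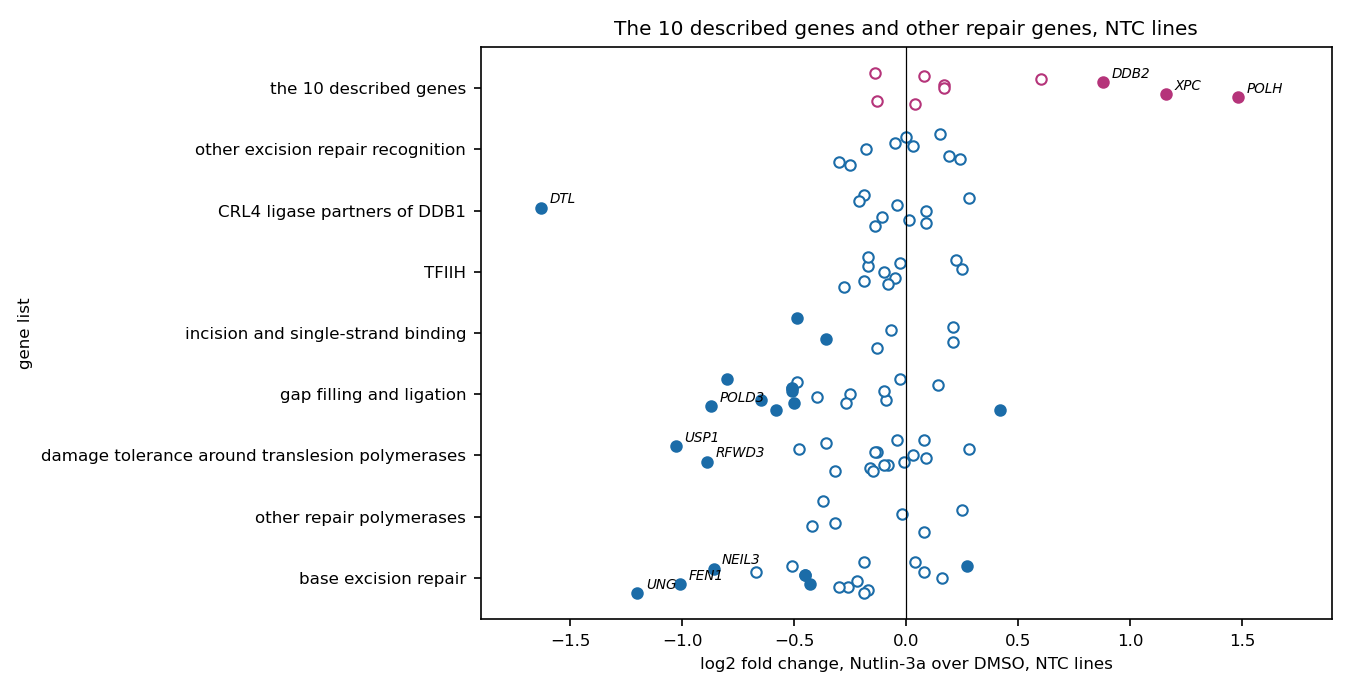
Log2 fold change of Nutlin-3a over DMSO in the NTC lines (horizontal axis) for the 10 described genes and for the genes of 8 other lists, with all libraries. Filled points passed an adjusted p under 0.05. DDB2, XPC and POLH lie from 0.88 to 1.48, and the filled points of the other lists lie below 0 except PCNA and APTX.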

How the data were processed

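Per the labels' protocols, mRNA libraries were made with a stranded kit. The submitters' processing notes list RSEM, STAR, cutadapt and DESeq2 and the build hg38. Tool versions were not given in the sources used here, and neither was the strand setting of the counting. The authors deposited RSEM's estimated counts for each gene, of which 5.60% to 7.16% per library were not whole. The 45 second copies of pseudoautosomal genes were added to the first, leaving 58825 genes, and counts were rounded.

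Counts were scaled by TMM and filtered by filterByExpr (minimum count 10) in edgeR 4.0.16 (R 4.3.3). Nutlin-3a responses were tested in 1 model of the 12 group means, so their p-values measure the spread between harvests, and guide comparisons on sums per line, so theirs measure the spread between lines. Standard errors are the log2 fold change over the root of F. GENCODE 29 on GRCh38 gave coordinates, lengths and overlaps, and RefSeq (GRCh38.p14) the promoter windows. The code was tested on simulated data.

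Harvest numbers were not used to pair libraries: deviations of same-numbered harvests correlated by 0.02 to 0.32 within lines. The 10 members, the lists and the rule for named genes (each member, and up to 4 called genes of a list with the smallest p in the NTC lines) were chosen with earlier results of these data known. DESeq2 1.42.0, other scalings, filters and left-out libraries were the alternatives.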

Additional observations from a re-analysis of the deposited data

Results flagged for a closer look

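Members were screened for a single library far from the others in each of the 4 combinations of guide class and treatment, 40 groups in all. Of these, 7 held such a library, and it was the sg2 Nutlin-3a library of harvest 1 in 7 of 7. Its CPM was above the 7 other PURPL Nutlin-3a libraries for DDB1 at 577, DDB2 at 135 and XPC at 94.0, and below them for XPA at 8.82, POLK at 25.0, REV1 at 16.5 and REV3L at 37.8. By chance about 1 in 20 groups would hold one if the groups were independent, which members read in the same library are not. That library had also been set apart on these same data, so the rate cannot be set against the 7. The 7 are values of 1 library and not separate events.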

How the results depend on the processing

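DDB2, XPC and POLH kept their direction and passed the test in both line classes under the 24 fits that leave out 1 library each and the 11 other alternatives. Of the 3, DDB2 in the NTC lines came nearest to the threshold and passed only just, at 0.69 ± 0.20 without NTC1 DMSO harvest 1. With the sg2 Nutlin-3a library of harvest 1 left out, 1 member was called lower in the NTC lines, as also with the replicate block added and with the NTC1 DMSO library of harvest 3 left out too. With the sg2 library left out and the GC trend removed there were 2. Over all genes, 2655 of 16697, 2906 of 16697, 2351 of 16624 and 3616 of 16652 were called lower in these fits, in the same order. With no filter 0 members were lower in the PURPL lines, beside 1770 of 29532 genes. Leaving out 1 library gave 3 to 4 members higher and 0 to 1 lower in the NTC lines, and 3 to 4 higher and 1 to 4 lower in the PURPL lines, where the 4 (REV1, XPA, POLI and POLK) came without sg2 Nutlin-3a harvest 3, which leaves the divergent harvest alone. In that fit 33.1% of all genes were called higher and 32.1% lower. Over the fits that leave out 1 library, all-gene calls in the NTC lines ran from 357 of 17209 to 1482 of 16697 higher. Those called lower there ran from 432 of 17203 to 2655 of 16697, the last without sg2 Nutlin-3a harvest 1, where the 1 member was lower. In the PURPL lines they ran from 1567 of 17203 to 5695 of 17200 higher and from 2238 of 17203 to 5525 of 17200 lower. Leaving out 1 line or harvest gave 0 to 6 members higher and 0 to 1 lower in the DMSO guide comparison, the 6 and the 1 without NTC2, where 17.9% and 18.9% of all genes were called.

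Values that changed sign lay near 0, except as given. In the NTC lines without both libraries, DDB1 was at -0.01, POLI at -0.01 and POLK at -0.02, and over the fits that leave out 1 library they ran from -0.04 to 0.05, -0.01 to 0.08 and -0.02 to 0.28. ERCC5 in the PURPL lines ran from -0.05 to 0.03. XPA, POLI and POLK in the PURPL lines were at -0.05, -0.03 and -0.05 without the sg2 library, at 0.01, 0.05 and 0.03 with the GC trend removed as well, and at 0.03, 0.07 and 0.05 with the sg5 library of harvest 3 left out as well, an alternative chosen after seeing the data. In the DMSO guide comparison, leaving out 1 line or harvest gave -0.23 to 0.17 for DDB2, -0.05 to 0.19 for POLI, -0.13 to 0.50 for POLK, -0.06 to 0.19 for REV1 and -0.07 to 0.55 for REV3L, and DDB2 was at 0.10 without both libraries. In Nutlin-3a it gave -0.37 to 0.05 for REV3L and -0.12 to 0.02 for XPA, and XPA was at 0.01 without the sg2 library. Without that and the sg5 library, XPA, POLI and POLK were at 0.05, 0.02 and 0.02. For the difference of responses it gave -0.06 to 0.32 for DDB1 and -0.06 to 0.25 for XPC, XPC was at -0.02 without the sg2 library and -0.01 without both, and DDB2 at -0.02 without both. The cause was not tested.

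Counts over all genes moved more: in the NTC lines 1344 calls became 4137 without the sg2 library (1482 higher and 2655 lower, against 685 and 659), 3546 without that and the NTC1 library, 4365 (2148 higher and 2217 lower) without that and the sg5 library, 5335 without the sg2 library and with the GC trend removed, 3651 with only the NTC lines fitted and 826 with no filter, and in the PURPL lines 5603 became 3491 with only those lines fitted and 6429 (2647 higher and 3782 lower, against 2896 and 2707) without the sg2 library. Leaving out 1 library gave 796 to 4137 calls in the NTC lines and 3805 to 11220 in the PURPL lines, the 11220 without sg2 Nutlin-3a harvest 3. The DMSO guide comparison went from 1 call to 6324 without NTC2. The replicate block gave 1419 calls in the NTC lines and 5420 in the PURPL lines, and changed no member's call. The harvest numbers pair no cultures by the labels.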
